A study of Mus musculus with 24 samples.

Results

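The genes described are 8 that mark naive, central memory and progenitor-like T cells: Ccr7, Il7r, Tcf7, Lef1, S1pr1, Klf2, Foxo1 and Slamf6. They were taken by symbol from a count table of 55025 gene symbols, each symbol matched 1 row, and all 8 passed the filter on low counts that left 20174 genes to test. The RNA came from CD45+CD4+ and CD45+CD8+ sorted cells of spleen and tumor in mice given vehicle or LCL161, as 24 libraries in 8 groups of 3. All mice, controls included, were TCRα-/-, so the conventional receptor of alpha beta T cells cannot be assembled in them. Each mouse carried a pancreatic tumor grown in the pancreas from live-passage M8 organoids, and no wild-type or tumor-free group was analysed here. LCL161, a SMAC mimetic that leads cells to degrade cIAP1 and cIAP2, was given orally at 75 mg/kg from day 4, every 3 days. Harvest was on day 12, when 3 doses had been given. The labels give no age, and nothing in them ties a replicate to a mouse of its own, so p-values measure the spread between these libraries, which may be technical.

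A naive T cell circulates between blood, spleen and lymph nodes. CCR7 is the chemokine receptor that brings it into lymphoid tissue, and S1PR1, the receptor for sphingosine 1-phosphate, lets it leave again. KLF2 is a transcription factor that turns on S1pr1, and FOXO1 acts above Klf2, Il7r and Ccr7. IL7R is the alpha chain of the interleukin 7 receptor, which keeps resting T cells alive. TCF1, the product of Tcf7, and LEF1 are paired transcription factors of naive and memory cells, and SLAMF6 is a surface receptor of the SLAM family used with TCF1 to mark progenitor-like cells. T cell activation usually lowers S1pr1 and Klf2 and raises Cd69, whose product binds S1PR1 and removes it from the surface.

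The RefSeq promoter table (GRCm38.p6) held an entry for 6 of the 8 genes: Foxo1, Il7r, Klf2, Lef1, Slamf6 and Tcf7. The sequences upstream of Klf2 and Slamf6 are shown because of 2 results that follow. With LCL161, Slamf6 was called lower in tumor CD4 cells, and Klf2 only in the mean of the 4 populations. The Klf2 stretch is chr8:72318812-72319032, plus strand, 221 bases, ending 30 bases before the RefSeq start, and its capitals mark both copies of GGGCGG, the box bound by KLF and Sp factors. The Slamf6 stretch is chr1:171917212-171917461, plus strand, 250 bases, ending 1 base before the start, and its capitals mark ATTGG, which is the NFY box CCAAT read on the minus strand.
Klf2: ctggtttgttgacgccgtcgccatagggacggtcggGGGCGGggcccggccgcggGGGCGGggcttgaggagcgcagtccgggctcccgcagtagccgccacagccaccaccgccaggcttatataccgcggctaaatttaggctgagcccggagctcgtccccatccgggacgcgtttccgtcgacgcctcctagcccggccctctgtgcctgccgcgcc
Slamf6: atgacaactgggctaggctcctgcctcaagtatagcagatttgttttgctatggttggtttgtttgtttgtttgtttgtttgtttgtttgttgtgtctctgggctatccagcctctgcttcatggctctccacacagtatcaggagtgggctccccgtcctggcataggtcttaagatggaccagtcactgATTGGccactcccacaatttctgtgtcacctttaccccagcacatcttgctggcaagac
Motifs were searched on both strands in the 250 bases before each RefSeq start. GGGCGG was present in 32.7% of all 32851 such windows and CCAAT in 33.8%, so both matches are common. TGTTTAC, the core of a FOXO site, was in 3.17% of windows, CTTTGA, the core of a TCF and LEF site, in 13.8%, and the kappaB consensus in 3.9%. No window of these 6 genes held the FOXO core or the kappaB consensus as spelled, and the TCF and LEF core was found before 1 of the 4 listed starts of Lef1.

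Library totals ran from 15.5 to 25.1 × 1e6 counts. Levels are given as CPM, the count scaled to a library of 1e6 counts, with n = 3 libraries a group. Log2 fold changes carry their SE, and p-values come from quasi-likelihood tests in edgeR with Benjamini-Hochberg adjustment within each comparison, where a gene is called at an adjusted p under 0.05. The sorted genes followed the labels: Cd4 was 688 to 1430 CPM in CD4 libraries and 7.07 to 31.7 CPM in CD8 libraries, and Cd8a was 565 to 1160 CPM in CD8 libraries and 0.0549 to 3.98 CPM in CD4 libraries. The CD3 genes, which mark T cells, were present in every library, with a sum for Cd3d, Cd3e and Cd3g of 1160 to 3340 CPM. RNA of Trac, the constant gene of the receptor alpha chain, was counted too. Its group means were 328 to 731 CPM in CD4 and 10.3 to 25.6 CPM in CD8 libraries. Markers of other cells were present too. The 9 conventional dendritic cell markers summed to 2070 to 2360 CPM in spleen CD8 vehicle libraries against 388 to 753 CPM in spleen CD8 LCL161 libraries. The 10 monocyte and macrophage markers summed to 2400 to 6040 CPM in tumor CD4 vehicle libraries against 679 to 1350 CPM in tumor CD4 LCL161 libraries. In such bulk samples, fewer cells of a type and less RNA per cell cannot be told apart.

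Per kilobase of exon, averaged over the 8 groups, Tcf7 was the highest of these genes at 266 CPM per kb, followed by Klf2 (192), Il7r (95.7), Ccr7 (85.8), S1pr1 (75.2), Foxo1 (20.3), Lef1 (14) and Slamf6 (9.02). The groups differed most in Slamf6, whose highest group mean was 10.2 times the lowest, and in Ccr7, at 7.94 times. Klf2 (4.05 times), S1pr1 (3.51), Tcf7 (2.97) and Il7r (2.28) were intermediate. Lef1 (1.57 times) and Foxo1 (1.47) were nearly flat, and Foxo1 stayed between 133 and 238 CPM in all 24 libraries. When the 8 groups were put in order of their means, most neighbours overlapped. For Slamf6 neighbours were separate at 3 places: below both spleen CD4 groups, between spleen CD8 vehicle and tumor CD8 vehicle, and above tumor CD4 with LCL161, which was last. Tumor CD4 vehicle libraries spread from 54.7 to 111 CPM, so they overlapped both spleen CD8 groups and both tumor CD8 groups. For Ccr7 both spleen CD8 groups (means of 428 and 337 CPM) lay above the other 6, whose neighbours all overlapped. For Tcf7 the 4 spleen group means (739 to 1217 CPM) lay above the 4 tumor group means (410 to 522 CPM), but single libraries crossed both ways: spleen CD4 vehicle replicate 3 (458 CPM) lay among the tumor libraries and tumor CD4 vehicle replicate 3 (783 CPM) among the spleen libraries. Neighbours overlapped throughout the orders of Il7r, Lef1 and S1pr1.

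**Figure D1:**
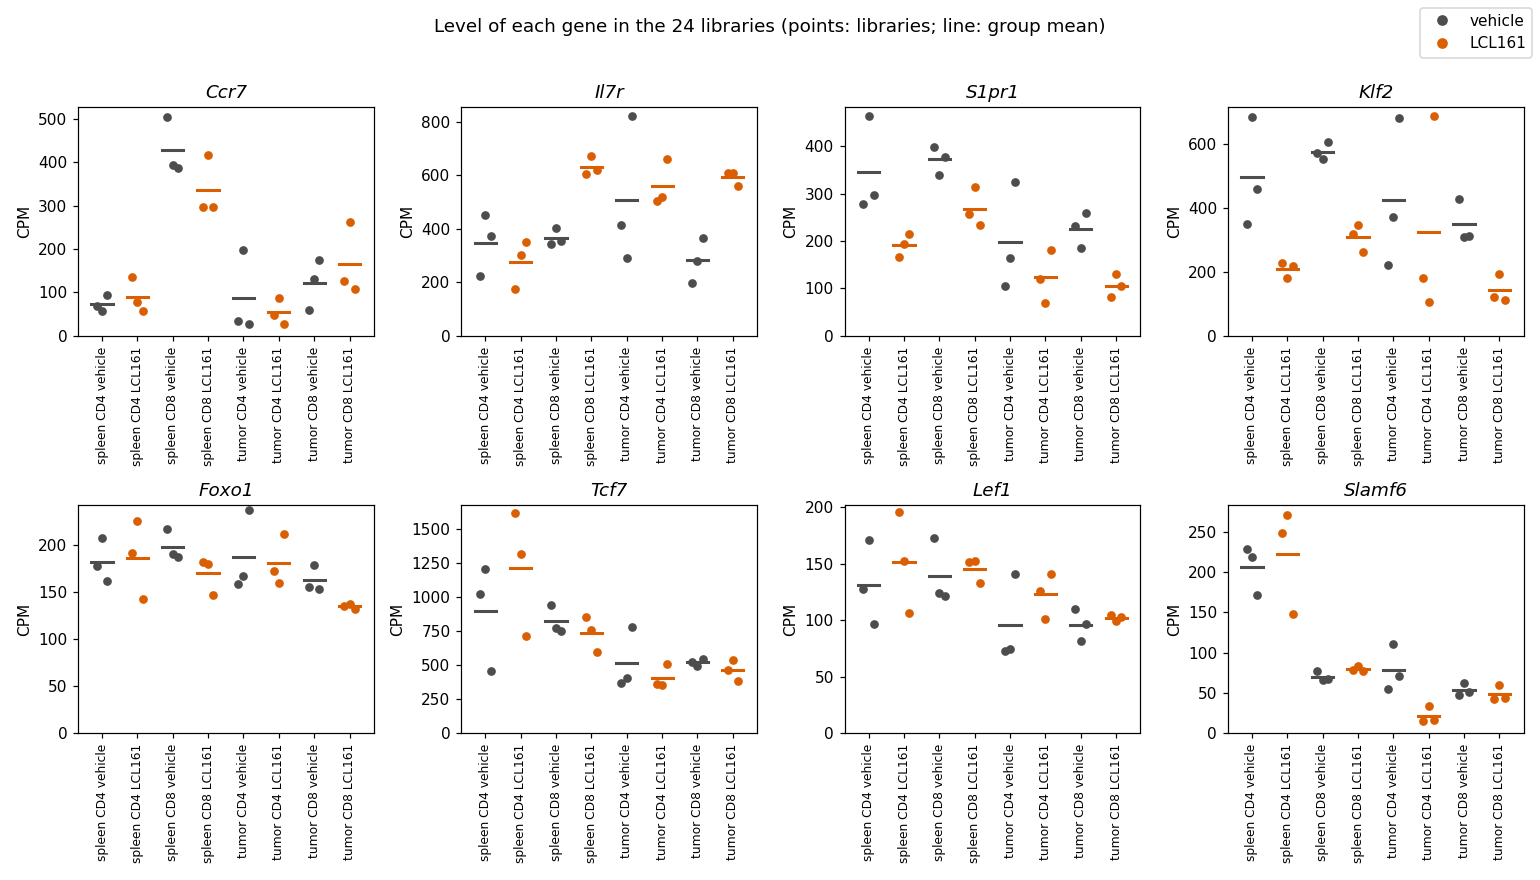
Level of each gene in CPM (linear axis from 0) in the 8 groups; points are libraries, 3 a group, and lines are group means, grey for vehicle and orange for LCL161. S1pr1 and Klf2 sit lower with LCL161 in both CD8 groups and in spleen CD4, and Slamf6 falls to 14.8 to 33.9 CPM in tumor CD4 cells with LCL161.

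The first question was how LCL161 changed these genes in each sorted population. Slamf6 fell in tumor CD4 cells. It was 54.7, 111 and 70.6 CPM in the vehicle libraries (replicates 1, 2 and 3) and 14.8, 33.9 and 16.4 CPM with LCL161. All LCL161 libraries lay below all vehicle libraries, a 3.64-fold fall (log2 fold change -1.86 ± 0.30, adjusted p = 0.023). It was the 1 of 8 genes called there, where 0.322% of all genes were called and 15.3% had groups that did not overlap. The call was lost without vehicle replicate 2 (log2 -1.51, adjusted p = 0.089), without LCL161 replicate 1 (-1.64, 0.10), and when the spread was taken from the 6 libraries alone (-1.88, 0.31), a fit that called 0 genes of all tested. Vehicle replicate 2 also held the highest sums of B cell markers (259 CPM, against 18.1 to 59.4 CPM in the other tumor CD4 libraries) and of macrophage markers (6040 CPM), and their part in the result was not tested. Per CPM of the CD3 genes, Slamf6 was 2.06% to 6.30% in vehicle and 0.559% to 1.19% with LCL161, so the groups did not overlap on that scale either. The same gene differed little with LCL161 elsewhere, with log2 fold changes of 0.11 ± 0.29 in spleen CD4, 0.19 ± 0.29 in spleen CD8 and -0.14 ± 0.29 in tumor CD8 cells.

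Klf2 and S1pr1, the egress pair, had lower means with LCL161 in all 4 populations, but neither was called in any of them alone. Klf2 in spleen CD4 cells was 351, 686 and 462 CPM (vehicle) against 229, 180 and 218 CPM (LCL161). Spleen CD8 cells held 572, 554 and 607 CPM against 318, 347 and 264 CPM. Tumor CD8 cells held 428, 309 and 314 CPM against 122, 195 and 111 CPM. The groups did not overlap in these 3 populations, with log2 fold changes of -1.26 ± 0.49 (adjusted p = 0.23), -0.90 ± 0.49 (0.26) and -1.30 ± 0.49 (0.34). Tumor CD4 cells were the exception for Klf2, with 222, 372 and 684 CPM in vehicle and 180, 106 and 688 CPM in LCL161. There, replicate 3 was the highest library in both groups, and the change was -0.39 ± 0.48 (adjusted p = 0.78).

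S1pr1 also had separate groups in those 3 populations. In spleen CD4 cells its levels were 278, 464 and 297 CPM (vehicle) against 167, 194 and 216 CPM (LCL161). Spleen CD8 cells held 398, 341 and 379 CPM against 258, 314 and 234 CPM. In tumor CD8 cells the values were 232, 187 and 259 CPM against 82.4, 130 and 106 CPM. The log2 fold changes were -0.85 ± 0.34 (adjusted p = 0.24), -0.47 ± 0.34 (0.41) and -1.09 ± 0.34 (0.23). In tumor CD4 cells the groups overlapped, at 105, 165 and 326 CPM against 120, 70.2 and 181 CPM (-0.68 ± 0.34, 0.38). The share of counts from mitochondrial genes was higher with LCL161, without overlap, in the same 3 populations, at 1.82% to 1.91% against 1.93% to 2.38% in spleen CD4, 1.46% to 1.52% against 2.10% to 2.37% in spleen CD8 and 1.21% to 1.35% against 1.37% to 1.42% in tumor CD8 libraries. It overlapped in tumor CD4 libraries (1.22% to 1.43% against 1.35% to 1.39%), and its part in these differences was not tested.

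Il7r went the other way in the CD8 cells. In spleen CD8 cells it was 345, 402 and 356 CPM (vehicle) against 604, 671 and 619 CPM (LCL161), and in tumor CD8 cells 199, 279 and 367 CPM against 610, 607 and 562 CPM. Both pairs of groups were separate, with folds of 1.72 (log2 0.78 ± 0.32, adjusted p = 0.14) and 2.11 (1.07 ± 0.32, 0.20). In CD4 cells the groups overlapped in both tissues, with log2 fold changes of -0.33 ± 0.32 in spleen and 0.14 ± 0.32 in tumor. The difference of the LCL161 effect between CD8 and CD4 cells was 1.11 ± 0.45 in spleen (adjusted p = 0.32) and 0.93 ± 0.45 in tumor (0.90), so it was not called.

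Across spleen CD4, spleen CD8 and tumor CD8 cells, 0 of the 8 genes were called in edgeR, where 0.431%, 8.28% and 0.248% of all genes were. At an unadjusted p under 0.05 there were 2 in spleen CD4 (Klf2, S1pr1; 15.9% of all genes), 1 in spleen CD8 (Il7r; 25%) and 3 in tumor CD8 cells (Il7r, S1pr1, Klf2; 10.7%). In spleen CD4, DESeq2, limma voom and the fit on the 6 libraries also called 0. In spleen CD8 cells limma voom called 2 (Il7r, Klf2), beside 35.3% of all genes, and the fit on the 6 libraries 3 (Il7r, S1pr1, Klf2), beside 13.7%. In tumor CD8 cells limma voom called 2 (Il7r, S1pr1), beside 3.35%, and the fit on the 6 libraries 1 (S1pr1), beside 1.4%. DESeq2 called 0 in both, beside 12.1% of all genes in spleen CD8 and 1.27% in tumor CD8 cells. Counts of genes with separate groups were 2 in spleen CD4 (14.6% of all genes), 5 in spleen CD8 (38.9%) and 4 in tumor CD8 (23.6%). Foxo1 was among the separate genes in both CD8 comparisons, with falls of only 1.17-fold and 1.2-fold. Ccr7, Tcf7 and Lef1 had overlapping groups in all 4 populations.

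The mean LCL161 effect over the 4 populations was added after these values had been seen. Its fit counted the libraries of the 4 populations as independent, although the labels do not say whether they share mice. If they do, the SE of this mean may be too small, and refits of the same libraries do not settle that. S1pr1 fell by 0.77 ± 0.17 on the log2 scale (1.71-fold, adjusted p = 0.005) and Klf2 by 0.96 ± 0.24 (1.95-fold, adjusted p = 0.011). Slamf6 fell by 0.43 ± 0.14 (adjusted p = 0.045). That mean came from tumor CD4 cells (-1.86), since the other 3 estimates were 0.11, 0.19 and -0.14. These were 3 of 8 genes called, all lower, beside 18.7% of all genes called and 8.97% called lower. Il7r missed the threshold at 0.42 ± 0.16 (adjusted p = 0.076), and Lef1 (0.18 ± 0.13), Ccr7 (-0.07 ± 0.30), Tcf7 (-0.06 ± 0.16) and Foxo1 (-0.13 ± 0.08) were not called. S1pr1 and Klf2 were called in all 8 other settings that could be run without a minimum fold, and with each of the 24 libraries left out. The Slamf6 call was kept in 7 of those 24 and was lost without the filter on low counts (adjusted p = 0.06). Il7r was called in 2 of those 8 settings, the replicate block included, and with 2 of the 24 libraries left out.

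**Figure D2:**
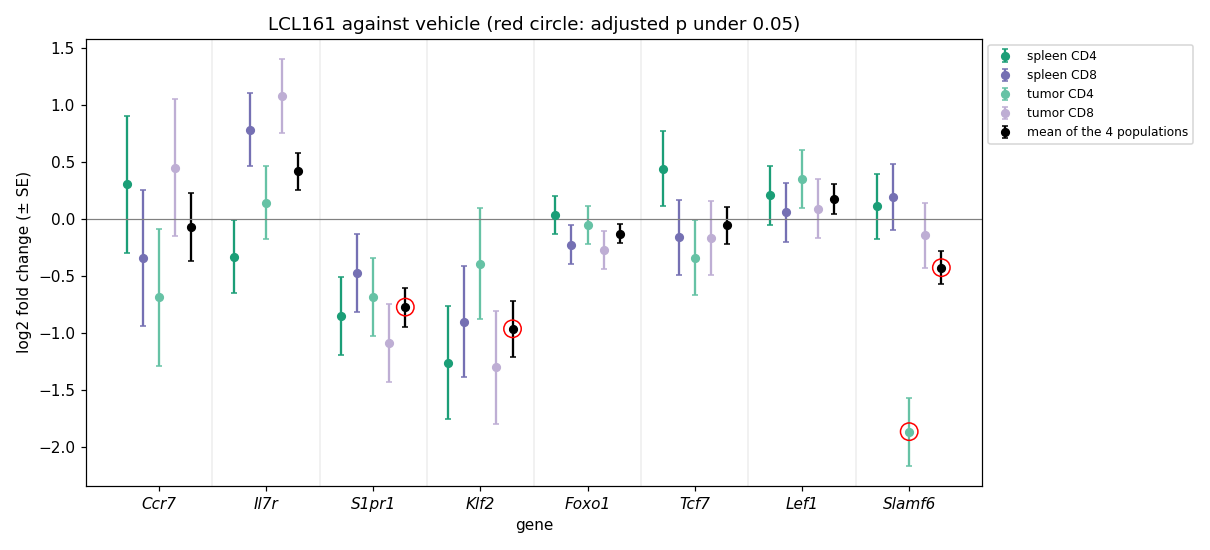
Log2 fold change of LCL161 against vehicle (± SE) for each gene in the CD4 and CD8 cells of spleen and tumor and for their mean (black); red circles mark an adjusted p under 0.05. Slamf6 is called in tumor CD4 cells (-1.86), and S1pr1 (-0.77), Klf2 (-0.96) and Slamf6 (-0.43) in the mean.

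Other cells that carry S1pr1 and Klf2 include endothelial and B cells. The 6 endothelial markers summed to 114 to 148 CPM in spleen CD8 vehicle and 55.6 to 78.5 CPM in spleen CD8 LCL161 libraries. Their sums overlapped between treatments in spleen CD4 (92.6 to 187 against 106 to 151 CPM) and in tumor CD8 libraries (42.8 to 81.5 against 36.6 to 85 CPM). B cell marker sums overlapped between treatments in every population. Other sums were separate between treatments in the populations where S1pr1 and Klf2 were. Monocyte and macrophage sums in tumor CD8 libraries were 1310 to 2010 CPM in vehicle against 608 to 926 CPM with LCL161. In spleen CD8 libraries conventional dendritic cell sums were 2070 to 2360 against 388 to 753 CPM. Plasma cell sums there were 659 to 1170 against 290 to 638 CPM and gamma delta T cell sums 1260 to 1340 against 1850 to 2610 CPM. Gamma delta sums in spleen CD4 libraries were 408 to 1770 against 217 to 348 CPM. The 6 regulatory T cell markers were Foxp3, Ikzf2, Ctla4, Tnfrsf18, Tnfrsf4 and Il2ra, which is also counted among the effector genes below. Their sum was higher with LCL161 in 3 populations without overlap, at 308 to 537 against 873 to 1700 CPM in spleen CD4. It was 68.8 to 82.5 against 127 to 222 CPM in spleen CD8 and 150 to 202 against 396 to 537 CPM in tumor CD8 libraries. The sum does not show which of the 6 genes rose. The part of these cells in the results was not tested. Per CPM of the CD3 genes, S1pr1 means were 17.3% in vehicle and 8.43% with LCL161 in spleen CD4 and 8.91% and 4.10% in tumor CD8 cells, where CD3 sums overlapped between treatments. In spleen CD8 cells the CD3 sum itself was higher with LCL161 (1160 to 1290 against 1500 to 2020 CPM), and scaling to it moved the median of all genes by -0.39. There S1pr1 means were 29.9% and 15.9% and Klf2 means 46.5% and 18.3%, while Il7r overlapped between treatments (26.7% to 34.6% against 30.7% to 44.7%). Scaled in this way, the Il7r difference in spleen CD8 cells was 0.32 ± 0.37 (adjusted p = 0.60).

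Cd69, which acts on S1PR1, rose in the same mean effect by 1.09 ± 0.11 on the log2 scale (2.13-fold, adjusted p = 1.4e-05), and by 2.02 ± 0.23 in spleen CD8 cells (adjusted p = 0.00012). In spleen CD8 cells Cd69 was 109, 107 and 96.7 CPM (vehicle) against 373, 370 and 518 CPM (LCL161), without overlap. Over the 24 libraries the log2 levels of S1pr1 and Cd69 had a Pearson correlation of -0.60. Within groups, after taking out each group's mean, the sign was the opposite, at 0.68, and Klf2 did the same (-0.43 over all, 0.55 within groups). These correlations are descriptions over libraries that share groups and pipeline, and they carry no test.

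**Figure D3:**
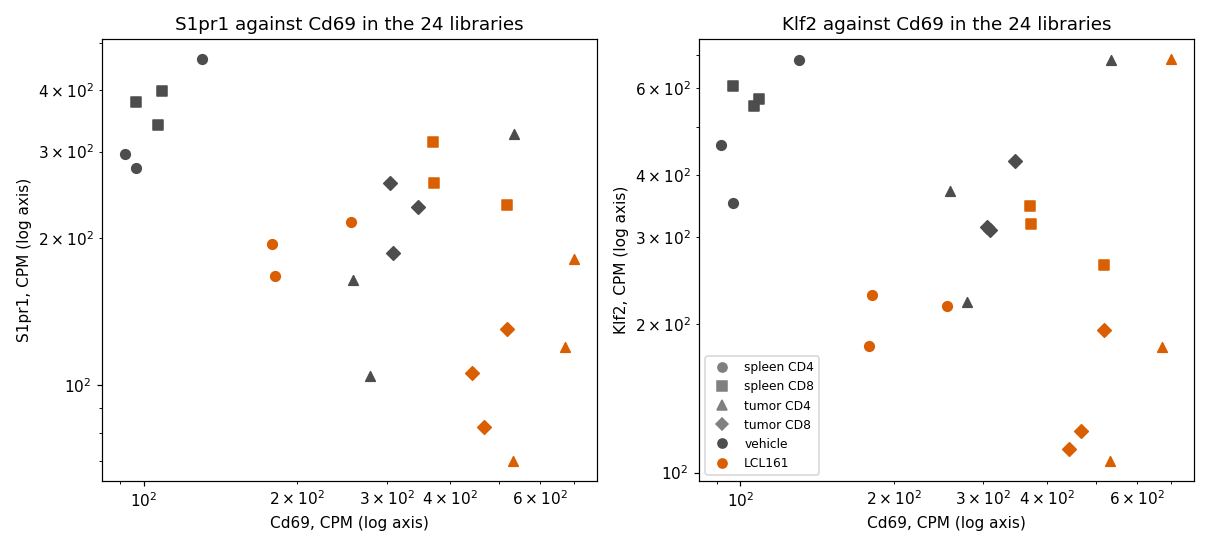
S1pr1 (left) and Klf2 (right) against Cd69 in the 24 libraries, CPM on log axes; the shape gives the population and the color the treatment. Over the 24 libraries S1pr1 tends to be lower where Cd69 is higher (correlation -0.60). In each of the 4 CD4 groups the library with most Cd69 also has most S1pr1. This does not hold in spleen CD8 with LCL161 or in tumor CD8 vehicle. Within groups the correlation is 0.68 for S1pr1 and 0.55 for Klf2.

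Of 23 other genes of the naive program, 2 rose and 7 fell in the mean effect, where 18.7% of all genes were called and 8.97% fell. Their median log2 fold change was -0.26, beside 0.013 over all genes. Klf3, a relative of Klf2 that restrains its targets, fell by 0.81 ± 0.12 (adjusted p = 0.0004), S1pr4, another sphingosine 1-phosphate receptor, by 0.58 ± 0.09 (0.00044), and Cd28, the costimulatory receptor, by 0.60 ± 0.12 (0.0028). Ltb, which encodes lymphotoxin beta, rose by 0.57 ± 0.10 (0.0014). Cd44, the adhesion receptor raised on memory and effector cells, was not called (0.18 ± 0.10, 0.24).

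Among 14 memory and progenitor genes, 0 rose and 4 fell in that mean (median -0.17), led by Id3, a regulator of memory precursors, at -0.97 ± 0.24 (adjusted p = 0.0099). Of 15 effector genes 3 rose and 2 fell. Il2ra, the alpha chain of the interleukin 2 receptor, rose by 1.32 ± 0.28 (adjusted p = 0.0039) and Ifng, the gene of interferon gamma, by 1.20 ± 0.32 (0.014). S1pr5, the egress receptor of effector and NK cells, fell by 1.90 ± 0.51 (0.015). Of 33 ligands and signaling partners 30 were tested, and 3 rose and 6 fell. Il2rg, whose product pairs with IL7R, rose by 0.41 ± 0.07 (adjusted p = 0.001). Sgpl1, which degrades sphingosine 1-phosphate, fell by 0.37 ± 0.07 (0.0019), and Arrb2, an arrestin that takes part in receptor internalization, rose by 0.45 ± 0.09 (0.002). Within single populations, spleen CD8 cells held 10 list calls, beside 8.28% of all genes called. Lower there were 3 of the 23 naive genes (Actn1 -1.64 ± 0.28, Klf3 -0.85 ± 0.25, S1pr4 -0.70 ± 0.18) and Bcl6, a repressor that directs the follicular and memory programs (-1.60 ± 0.30, adjusted p = 0.0048). Of the 15 effector genes 3 were higher, Cd69, Gzmb (2.73 ± 0.66, 0.018) and Ifng (2.63 ± 0.67, 0.023), with a list median of 0.60. Of the partners, Il2rg was higher (0.60 ± 0.14, 0.016), and Sgpl1 (-0.62 ± 0.14, 0.012) and Grk2, a receptor kinase (-0.64 ± 0.16, 0.021), were lower. The dendritic cell marker sum was lower in the same LCL161 libraries, as given above, and its part in these calls was not tested.

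The next question was how these genes differed between tumor and spleen in vehicle mice. In CD4 cells Slamf6 was lower in the tumor, at 54.7, 111 and 70.6 CPM against 229, 218 and 171 CPM in the spleen, a 2.61-fold difference without overlap (log2 -1.39 ± 0.29, adjusted p = 0.0035). It was the 1 gene of 8 called, beside 16.4% of all genes, and the 1 without overlap, beside 31%, and with the 6 libraries alone its adjusted p was 0.054. Tcf7 was 369, 405 and 783 CPM in the tumor and 1026, 1208 and 458 CPM in the spleen, so replicate 3 of each tissue went against the rest, and it was not called (-0.79 ± 0.33, 0.11). Without tumor replicate 3 there were 4 calls (Tcf7, Lef1, S1pr1, Slamf6), beside 15.3% of all genes, and without spleen replicate 3 there were 2 (Tcf7, Slamf6), beside 10.1%. Spleen replicate 3 had the lowest sum of alpha beta and lineage genes (Trac, Trbc1, Trbc2, Cd4, Cd8a and Cd8b1) in its group, at 1745 against 3439 and 3989 CPM. It also had the highest sum of gamma delta T cell markers (1772 against 408 and 1010 CPM). Tumor replicate 3 had the lowest gamma delta sum (232 against 612.5 and 2804 CPM), and the part of these cells was not tested. Between the tissues B cell sums were 884 to 2260 CPM in the spleen against 22.3 to 259 CPM in the tumor, and monocyte and macrophage sums 87.5 to 294 against 2400 to 6040 CPM, without overlap in either. Over the 24 libraries Slamf6 had a Pearson correlation of 0.75 with the B cell sum, and the part of B cells and macrophages in the Slamf6 call was not tested.

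In vehicle CD8 cells all 8 genes had lower means in the tumor, and 7 of 8 (all but Il7r) had groups that did not overlap, beside 47.9% of all genes. Ccr7 was 59.8, 131 and 174 CPM in the tumor against 504, 395 and 387 CPM in the spleen, a 3.52-fold difference just above the threshold (log2 -1.82 ± 0.61, adjusted p = 0.053). In edgeR 0 of the 8 were called, beside 14.8% of all genes, and 2, S1pr1 (0.047) and Ccr7 (0.0082), had an unadjusted p under 0.05, beside 27.9%. That count changed both with the libraries fitted and with the tool. With the 6 CD8 libraries alone 7 of 8 were called lower, beside 32.6% of all genes, while limma voom called 5, beside 35.2%, and DESeq2 1, beside 18%. Dendritic cell marker sums were 346 to 500 CPM in the tumor and 2070 to 2360 CPM in the spleen, B cell sums 22.1 to 34.6 and 749 to 955 CPM, and CD3 sums 2390 to 2710 and 1160 to 1290 CPM. Scaled to the CD3 genes, which moved the median of all genes by -0.98, all 8 were called lower, as were 12385 of the 20174 genes tested (63.9% were called in either direction).

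In LCL161 CD4 cells 3 of the 8 genes were called between tissues, beside 21.3% of all genes. Slamf6 was 14.8, 33.9 and 16.4 CPM in the tumor against 249, 271 and 148 CPM in the spleen (10.3-fold, log2 -3.36 ± 0.31, adjusted p = 6.4e-06). Tcf7 was 362, 359 and 509 CPM against 1618, 1317 and 715 CPM (-1.57 ± 0.34, 0.0029), and Il7r was higher in the tumor at 503, 519 and 663 CPM against 176, 303 and 351 CPM (1.02 ± 0.32, 0.03). None of these groups overlapped. In LCL161 CD8 cells S1pr1 alone was called (-1.34 ± 0.34, adjusted p = 0.023), beside 8.77%. B cell marker sums were 733 to 1550 CPM in LCL161 spleen CD4 libraries and 18.1 to 59.4 CPM in LCL161 tumor CD4 libraries, and their part in the Slamf6 difference was not tested.

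**Figure D4:**
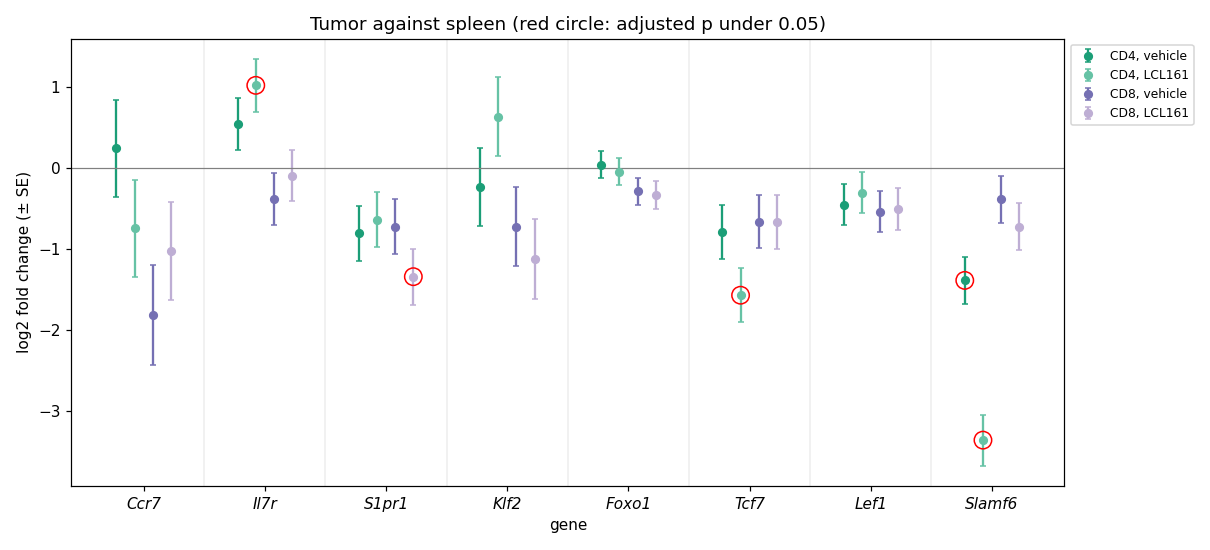
Log2 fold change of tumor against spleen (± SE) for each gene in CD4 and CD8 cells with vehicle or LCL161; red circles mark an adjusted p under 0.05. Slamf6 in CD4 cells is the largest difference with LCL161 (-3.36), and all 8 genes are below 0 in CD8 cells.

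The list genes differed between tissues in CD4 and in CD8 cells, and not all in 1 direction. In vehicle CD4 cells 6 of the 23 naive genes were lower in the tumor and 2 higher, and 7 of 14 memory and progenitor genes were lower and 0 higher, beside 16.4% of all genes called and 6.78% lower. Cxcr5, the follicle-homing receptor, was lower in the tumor (log2 fold change -5.42 ± 0.68, adjusted p = 4.5e-05), as were Cd27, a costimulatory receptor (-3.59 ± 0.60, 0.00062), and Tox, a regulator of exhausted and follicular cells (-2.32 ± 0.57, 0.0097). Sh2d1a, the adaptor (SAP) through which SLAMF6 signals, was lower too (-1.88 ± 0.40, 0.0039), and so was Ly9, another SLAM receptor (-0.82 ± 0.16, 0.0019). B cells also carry Cxcr5, and the B cell sums given above were lower in the same tumor libraries, so their part in the Cxcr5 difference was not tested. In vehicle CD8 cells 8 of 23 naive genes were lower and 0 higher, among them Dapl1 (-2.72 ± 0.50), Il6ra (-2.68 ± 0.56), Rflnb (-2.64 ± 0.49) and Actn1 (-1.83 ± 0.28), beside 14.8% of all genes called and 6.86% lower. The memory and progenitor genes were split there, with 3 of 14 higher and 2 lower and a median of 0.67. Bcl11b (0.89 ± 0.22, adjusted p = 0.011) and Cd44 (0.79 ± 0.20, 0.013) were higher, and Bcl6 (-1.86 ± 0.30, 0.00047) and Cxcr5 (-3.72 ± 0.64, 0.00066) lower. Of 15 effector genes 4 were higher in CD4 cells, with 1 lower, and 5 in CD8 cells, including Gzmb, the protease granzyme B (3.99 ± 0.70, 0.00084). Cd69 was higher in the tumor in both (1.75 ± 0.23 and 1.62 ± 0.23).

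CD8 and CD4 cells of the vehicle spleen were set against each other for lineage. Ccr7 was higher in CD8 cells, at 504, 395 and 387 CPM against 69.8, 56.2 and 93.8 CPM (5.85-fold, log2 2.55 ± 0.63, adjusted p = 0.013), and this call was lost without CD4 replicate 1 or 2 (adjusted p = 0.055 in each). Slamf6 was lower in CD8 cells, at 77, 66.1 and 67.2 CPM against 229, 218 and 171 CPM (2.94-fold, -1.55 ± 0.29, 0.0019). These were 2 of 8 called, beside 11.4% of all genes, and neither pair of groups overlapped (36.4%). Scaled to the CD3 genes, which moved the median of all genes by 0.62, the Slamf6 difference was -0.89 (adjusted p = 0.053). Dendritic cells, which also express Ccr7, had a marker sum of 2070 to 2360 CPM in the CD8 and 178 to 328 CPM in the CD4 libraries. With LCL161 the dendritic sums were 388 to 753 CPM in spleen CD8 and 84.7 to 244 CPM in spleen CD4 libraries, and Ccr7 was 298, 416 and 298 CPM in spleen CD8 against 135, 78.7 and 57.1 CPM in spleen CD4 cells (3.73-fold, 1.90 ± 0.62, adjusted p = 0.04). Over all 24 libraries Ccr7 had a Pearson correlation of 0.82 with the dendritic cell marker sum, and the part of these cells in the Ccr7 calls was not tested.

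In the same LCL161 spleens Il7r was higher in CD8 than in CD4 cells (1.19 ± 0.32, adjusted p = 0.016) and Slamf6 again lower (-1.47 ± 0.29, 0.0018), so 3 of 8 were called, beside 17.4%. In the vehicle tumor 0 of 8 were called in edgeR between CD8 and CD4 cells, beside 4.07% of all genes. There 1 gene, Il7r, had an unadjusted p under 0.05 (0.016), beside 19.3% of all genes, and DESeq2 and limma voom called 0 as well. With LCL161, Slamf6 was higher in tumor CD8 cells, at 42.7, 59.4 and 43.4 CPM against 14.8, 33.9 and 16.4 CPM in tumor CD4 cells (2.24-fold, 1.16 ± 0.29, adjusted p = 0.037), beside 2.87% of all genes. Vehicle tumors had the opposite sign without a call (-0.55 ± 0.29, 0.30).

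Differences of the LCL161 effect were tested as interactions. In edgeR 0 of 8 genes were called for tumor minus spleen in CD4 (0.00991% of all genes), tumor minus spleen in CD8 (0.0248%), CD8 minus CD4 in spleen (0.292%) or CD8 minus CD4 in tumor (0%). At an unadjusted p under 0.05 these held 1 (Slamf6), 0, 1 (Il7r) and 1 (Slamf6) of the genes, beside 10.2%, 9.04%, 12.1% and 5.53% of all genes. Over these 4 interactions Slamf6 had the largest estimates. Its LCL161 effect in tumor minus that in spleen CD4 cells was -1.97 ± 0.41 (adjusted p = 0.16 in edgeR, 0.003 in DESeq2), and its effect in tumor CD8 minus that in tumor CD4 cells was 1.72 ± 0.41 (0.51 in edgeR, 0.029 in DESeq2). Over all genes DESeq2 called 137 in the former, against 2 in edgeR, and 41 in the latter, against 0. The difference between tissues was compared between CD8 and CD4 vehicle cells in the same way, and 0 of 8 were called, beside 3.29% of all genes. There Ccr7 (-2.06 ± 0.85, adjusted p = 0.20) and Slamf6 (1.00 ± 0.41, 0.19) had an unadjusted p under 0.05, beside 18.7%, and limma voom called Slamf6, beside 6.12%.

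Within the set, 2 pairs moved most closely over the 24 libraries. S1pr1 and Klf2 had a Pearson correlation of 0.85, and 0.86 within groups. Tcf7 and Lef1 had 0.79, and 0.88 within groups. Tcf7 and Slamf6 followed at 0.72. Il7r stood apart, with no correlation above 0.04 to another of the 8 and its lowest with Slamf6 (-0.49). Outside the set, among 9915 genes with a mean of at least 5 CPM, the closest to S1pr1 were Ppp1r13b (0.90), Ripor2 (0.90) and Lpar6 (0.87), and the closest to Klf2 was also Lpar6 (0.82). Slamf6 was nearest to Ephx1 (0.89), Gpr155 (0.89) and Tspan32 (0.88), and among genes on the lists it had 0.83 with Cxcr5 and 0.76 with Sh2d1a, but only 0.31 and 0.09 within groups. For Ccr7 they were Il4ra (0.88), Gramd4 (0.87) and Dapl1 (0.86). Tcf7 was nearest to Il16 (0.87), Lef1 to Ggact (0.79), Il7r to Mtap (0.82) and Foxo1 to Hnrnpa0 (0.75). All these correlations are across the same 24 libraries, which share groups, and are given as descriptions.

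By position (GRCm38, GENCODE M21), Ccr7 lies on chromosome 11 at 99144196 to 99155077, Il7r on chromosome 15 at 9505788 to 9530176, S1pr1 on chromosome 3 at 115710433 to 115715072 and Klf2 on chromosome 8 at 72319033 to 72321656, and no other annotated gene overlaps them. Tcf7 (chromosome 11, 52252371 to 52283014), Lef1 (chromosome 3, 131110471 to 131224356), Foxo1 (chromosome 3, 52268336 to 52353221) and Slamf6 (chromosome 1, 171917515 to 171953170) each overlap at least 1 predicted gene on the opposite strand. Tcf7, Lef1 and Foxo1 also overlap 1 predicted gene each on their own strand (Gm26551, Gm42449 and Gm38034), which counting by strand does not separate. Whether counting used strand was not given in the sources used here, and without strand reads of the opposite partners cannot be told apart from theirs.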

How the data were processed

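RNA was measured in 24 libraries, 3 in each of 8 groups of tissue, sorted population and treatment. Per the submitters' processing notes, cutadapt was used and reads were aligned with STAR 2.7.3a to GRCm38. The authors deposited 1 table of expected counts per gene symbol. The counting tool, annotation and strand setting were not given in the sources used here. Fractional values made up 52.7% of those above 0, and all were rounded for the tests.

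Tests used edgeR 4.0.16 under R 4.3.3. Genes kept by filterByExpr (minimum count 10) numbered 20174. Libraries were scaled by TMM (factors 0.939 to 1.05), and all 24 libraries entered 1 robust quasi-likelihood fit of the 8 group means (residual degrees of freedom 16), so CD4 and CD8 groups share each gene's spread. There were 14 comparisons, 1 of them added later, and 5 repeats in LCL161 libraries, each with Benjamini-Hochberg adjustment and a threshold of 0.05. Log2 values for correlations used a prior count of 2. Alternatives used RLE, no or CD3 scaling, other filters, DESeq2 1.42.0, limma 3.58.1 (voom with quality weights), only the libraries compared, a replicate block and leaving out each library. The pipeline was also checked on simulated data. No 2 replicates agreed within counting error (chi-square per gene 13.03 to 134.9 over 24 pairs), and none was left out.

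The 8 genes and the lists were chosen with earlier results of these data known. All 8 are named. From each list and comparison, up to 4 genes with the smallest adjusted p past the threshold could be named, with Cd44 and Cd69, plus the 3 genes most correlated with each of the 8. Same-numbered replicates were checked for deviations that move together. Every correlation was above 0.1 only between LCL161 spleen CD8 and LCL161 tumor CD8 libraries (0.11, 0.12 and 0.17), and no label says whether these are pairs. In every comparison the block uses a shared number alone. Python 3.11.15 and matplotlib 3.10.9 drew the figures. Promoters are from RefSeq. 1 gene of this rule is not reported here.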

Additional observations from a re-analysis of the deposited data

Results flagged for a closer look

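In LCL161 libraries, the tumor against spleen difference of Slamf6 itself differed between CD8 and CD4 cells. It was -0.72 ± 0.29 on the log2 scale in CD8 cells and -3.36 ± 0.31 in CD4 cells, and their difference, tested as an interaction in edgeR, was 2.64 ± 0.41 (adjusted p = 0.0034, beside 3.29% of all genes called). The levels were 42.7, 59.4 and 43.4 CPM in tumor CD8 against 78.4, 83.8 and 77.9 CPM in spleen CD8 cells, and 14.8, 33.9 and 16.4 CPM in tumor CD4 against 249, 271 and 148 CPM in spleen CD4 cells. In vehicle libraries the same difference was 1.00 ± 0.41 (adjusted p = 0.19). B cell marker sums were lower in the tumor in both populations, and their part in the difference was not tested.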

How the results depend on the processing

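Counts of the 8 genes called moved as follows. Outside the ranges with a library left out, small changes of a count above 0, such as from 2 to 3, are not listed. Swaps of genes at an equal count are not listed either. For LCL161 against vehicle they went from 0 to 2 (limma voom) and 3 (only the libraries compared) in spleen CD8, from 1 to 0 (only the libraries compared; 0 to 1 with a library left out) in tumor CD4, and from 0 to 2 (limma voom) and 1 (only the libraries compared) in tumor CD8. Tumor against spleen in CD4 went from 1 to 0 with only the libraries compared, to 3 in LCL161 libraries with or without the replicate block, and to between 1 and 4 with a library left out. In CD8 it went from 0 to 8 (CD3 scaling), 7 (only the libraries compared), 5 (limma voom) and 1 (a filter of 5 CPM in 3 libraries, DESeq2, the replicate block, and LCL161 libraries with or without the block). CD8 against CD4 in vehicle spleen gave 1 to 2 calls with a library left out, against 2, and in the tumor LCL161 libraries gave 1 with or without the block, against 0. The LCL161 effect in tumor minus spleen CD4 gave 1 call in DESeq2 and 0 to 1 with a library left out, and CD8 minus CD4 in tumor gave 1 in DESeq2, against 0. Over all genes DESeq2 called 137 in the former, against 2 in edgeR, and 41 in the latter, against 0. The tissue difference in CD8 minus CD4 went from 0 to 4 (CD3 scaling) and 1 (limma voom, and LCL161 libraries with or without the block). CD3 scaling called 6219 of all genes there, against 664 in the main fit. The mean of the 4 populations went from 3 to 0 at a log2 fold change of at least 1, and to 2 to 4 with a library left out.

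Signs were followed only for estimates that were large or had an unadjusted p under 0.05 in the main setting. Among these, the estimates that turned sign were all uncalled in that setting. Ccr7 in tumor CD4 went from -0.69 to 0.26 (limma voom) and ranged from -1.2 to 0.8 with a library left out, the highest without vehicle replicate 2. Its tumor minus spleen effect in CD4 went from -0.99 to 0.25 (limma voom), with -1.49 to 0.51 left out, and its CD8 minus CD4 effect in tumor, 1.13, ranged from -0.36 to 1.64. Klf2 turned without tumor CD4 LCL161 replicate 3, in ranges of -0.29 to 1.39 (tumor minus spleen, CD4) and -1.43 to 0.25 (CD8 minus CD4, tumor). CD8 against CD4 in the tumor turned in LCL161 libraries for Il7r, from -0.85 to 0.08 (0.10 with the block), and for Slamf6, from -0.55 to 1.16 (1.22 with the block). The cause was not tested.

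With the replicate block, Ccr7 in vehicle CD8 tumor against spleen was called (-1.94, adjusted p = 0.038), as was Il7r in the mean of the 4 populations (0.44, 0.036). The block was not alone in calling Il7r in that mean, since 2 of the 8 other settings did. In the mean of the 4 populations the block gave same-numbered vehicle and LCL161 libraries a shared effect. A mouse was given vehicle or LCL161, so that block was not a pairing by mouse. For vehicle spleen and tumor CD8 cells the labels do not say whether same-numbered libraries are pairs. Same-numbered vehicle spleen and tumor CD8 libraries had deviations correlated at 0.03, 0.06 and 0.02. Such correlations cannot settle whether they came from the same mouse, and they do not bear on the mean of the 4 populations. In LCL161 CD8 cells S1pr1 kept its tumor against spleen call with the block (-1.36, adjusted p = 0.032). That block used the replicate numbers of all LCL161 libraries, CD4 included, and no label ties those numbers to mice. Counts over all genes moved widely: with only the libraries compared, 0 were called in spleen CD4 and in tumor CD4 against 87 and 65, and limma voom called 7118 in spleen CD8 against 1670. With 3 libraries a group, differences near the SE of a gene, such as 0.60 for Ccr7, were not detectable. Differences well above the SE also went uncalled in edgeR. Among them were Ccr7 in vehicle CD8 tumor against spleen (-1.82 ± 0.61, adjusted p = 0.053) and S1pr1 with LCL161 in tumor CD8 cells (-1.09 ± 0.34, 0.23). An uncalled gene is therefore not shown to be unchanged.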
